A study of Mus musculus with 2 samples.

Results

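Imprinted genes are expressed from the allele inherited from 1 parent only, and the 10 described here, H19, Igf2, Dlk1, Meg3, Cdkn1c, Igf2r, Peg3, Mest, Plagl1 and Grb10, act on growth. They were chosen by name from the 34745 genes of a count table of mouse ear skin, with earlier results of these data known, so their values are a description. The table holds 2 libraries of ear skin, 1 labelled KAT8-cKO, a conditional knockout of the histone acetyltransferase KAT8 (MOF), and 1 labelled WT. Ears of both genotypes had received 30 mg of 5% imiquimod cream daily for 3 days, a treatment that produces psoriasis-like inflammation, and were taken on day 4. The promoter or cell type that drives the knockout, and the strain, sex, age and number of animals behind each library, are not stated in the sources used here. Of the members, 4 are maternally expressed (H19, Meg3, Cdkn1c and Igf2r) and 5 paternally expressed (Igf2, Dlk1, Peg3, Mest and Plagl1). Grb10 is maternally expressed in most tissues and paternally in neurons, and was kept out of both classes.

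Imprinting marks are DNA methylation differences set in the germ line and kept through development. Paternally expressed growth genes often promote fetal growth and maternally expressed ones often restrain it. Igf2 encodes the fetal growth factor IGF-II, Igf2r the receptor that carries IGF-II to lysosomes, Cdkn1c the cyclin-dependent kinase inhibitor p57, and Grb10 an adaptor that dampens insulin and IGF receptor signalling. H19 and Meg3 are non-coding RNAs, and Dlk1 encodes a membrane protein of preadipocytes and other progenitor cells. Peg3 and Plagl1 encode zinc finger proteins and Mest a protein of the hydrolase fold family. Many of these genes are high before birth and decline afterwards, while H19 stays high in adult skeletal muscle.

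The libraries held 13727524 counts in the library labelled KAT8-cKO and 12179608 in the library labelled WT. Counts of Kat8 itself were no lower under the knockout label, with 351 in the library labelled KAT8-cKO and 219 in the library labelled WT, a ratio of 1.27 (95% interval 1.07 to 1.51, counting error only). The genotype labels are therefore used below as labels. Xist had 6 counts in the library labelled KAT8-cKO and 11891 in the library labelled WT, and the Y-linked gene Eif2s3y had 838 and 0, so sex and genotype label cannot be told apart. The keratinocyte genes Krt5 and Krt14 reached 12613 and 12064 CPM (counts scaled to library size and composition) in the library labelled KAT8-cKO, against 8602 and 12587 CPM in the library labelled WT. With 1 library per genotype there were no replicates, no test was made, and each difference describes these 2 libraries. Intervals below are exact 95% intervals that cover counting error only.

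Several members carry microRNAs in their transcripts, which is a known part of how their loci act, and the mature forms show what the host RNAs encode beyond protein. H19 holds Mir675 in an exon, Meg3 holds Mir770 in an exon, and Igf2 and Mest hold Mir483 and Mir335 in introns (RefSeq sequences, GRCm38.p6, 5′ to 3′, with the seed, bases 2 to 8, in capitals). No 2 of the forms shown share a seed. The counts below are of the host genes in polyadenylated RNA and do not measure the microRNAs.
mmu-miR-675-5p (H19): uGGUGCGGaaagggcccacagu
mmu-miR-675-3p (H19): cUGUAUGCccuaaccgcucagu
mmu-miR-483-3p (Igf2): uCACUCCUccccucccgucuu
mmu-miR-335-5p (Mest): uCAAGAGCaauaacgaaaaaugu
mmu-miR-770-3p (Meg3): cGUGGGCCugacguggagcugg

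H19 and Dlk1 were the members that differed by at least 2-fold between the libraries, in opposite directions, and the other 8 lay within 2-fold. Genes reaching 1 CPM in one of the libraries or in both counted as measured, as all 10 members did. A measured gene was called higher or lower if its log2 ratio (KAT8-cKO over WT, with 1 CPM added to each) was at least 1 in size, so the rule is stricter on low genes than the plain fold. The share called was 2 of 10 members, against 13.2% of the 15240 genes measured (4.56% higher and 8.63% lower), so the number of members past 2-fold was not far from that of genes at large. The median log2 ratio was -0.09 for the members and 0.01 for all genes measured.

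**Figure D1:**
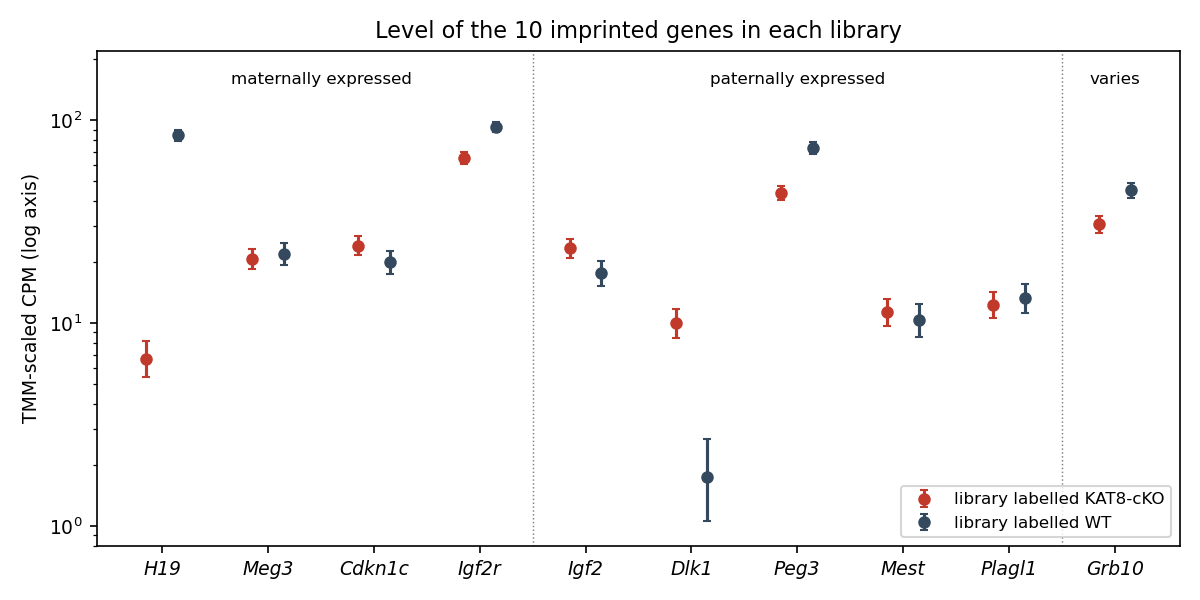
Level of each member in TMM-scaled CPM on a log axis, in the library labelled KAT8-cKO (red, left) and the library labelled WT (dark blue, right), grouped by the expressed parental allele. Points are single libraries and bars exact 95% counting intervals. H19 lies at 6.68 against 84.5 CPM and Dlk1 at 9.99 against 1.74 CPM, while the other pairs lie within 2-fold.

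H19 (ENSMUSG00000000031, chromosome 7 from 142575529 to 142578143, minus strand, GRCm38), a long non-coding RNA made from the maternal allele, had 97 counts in the library labelled KAT8-cKO and 973 in the library labelled WT. That was 6.68 and 84.5 CPM, 12.6-fold lower with the knockout label (interval 10.2 to 15.7), and the counting intervals did not overlap. Only 24 of the 15240 measured genes had a lower ratio. Per kilobase of exon, H19 had 2.72 CPM in the library labelled KAT8-cKO, where it ranked 7 among the 10 members, and 34.3 CPM in the library labelled WT, where it ranked 1. Its exons overlap those of no other gene in the count table. Dlk1, Cdkn1c, Igf2r, Peg3, Plagl1 and Grb10 share this property. Mir675, which lies in an H19 exon, did not enter this check.

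Igf2 (chromosome 7 from 142650766 to 142666816, minus strand), the paternally expressed neighbour that shares enhancers with H19, went the other way by a small amount. It had 340 counts in the library labelled KAT8-cKO and 203 in the library labelled WT, or 23.4 and 17.6 CPM, a ratio of 1.33 (interval 1.11 to 1.59). Of its exon length, 1.71% overlaps Igf2os on the opposite strand, which had 11 and 2 counts. Per kilobase of exon, H19 stood at 0.664 of the Igf2 level in the library labelled KAT8-cKO and at 11.2 times the Igf2 level in the library labelled WT. This ratio of 2 genes within a library needs no scaling between libraries, and it differed 16.8-fold (exact conditional interval 12.7 to 22.3). The pair was set side by side after the values were seen. Ins2, which lies beyond Igf2 and is imprinted in yolk sac, had 0 counts in both libraries.

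The measured genes within 250 kb of H19, a window chosen after the values were seen, numbered 10. Of these, 3 passed the rule as lower with the knockout label and none as higher, against 8.63% and 4.56% of all genes measured. All 3 lay downstream of H19, as did every measured gene of the window other than Igf2. Tnnt3, which encodes fast skeletal troponin T, had 2739 counts in the library labelled KAT8-cKO and 14346 in the library labelled WT, 6.60-fold lower (interval 6.33 to 6.88). Tnni2, the fast troponin I gene, had 2583 and 6216 counts and was 3.03-fold lower. The non-coding gene Nctc1 had 50 and 211 counts and was 5.32-fold lower. Prr33 had 11 and 26 counts, 2.98-fold lower (interval 1.42 to 6.68), and missed the rule at a log2 ratio of -0.89. Syt8 and Lsp1 were 1.81-fold and 1.44-fold lower. Neither Mrpl23, a mitochondrial ribosomal protein gene, nor Ctsd, the cathepsin D gene, differed by as much as 2-fold (ratios 1.38 and 1.03). Ifitm10 had a ratio of 0.994. The median log2 ratio of the 10 genes was -0.66. The lower genes around H19 included those of fast muscle, and Igf2 on the other side had a ratio above 1.

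**Figure D2:**
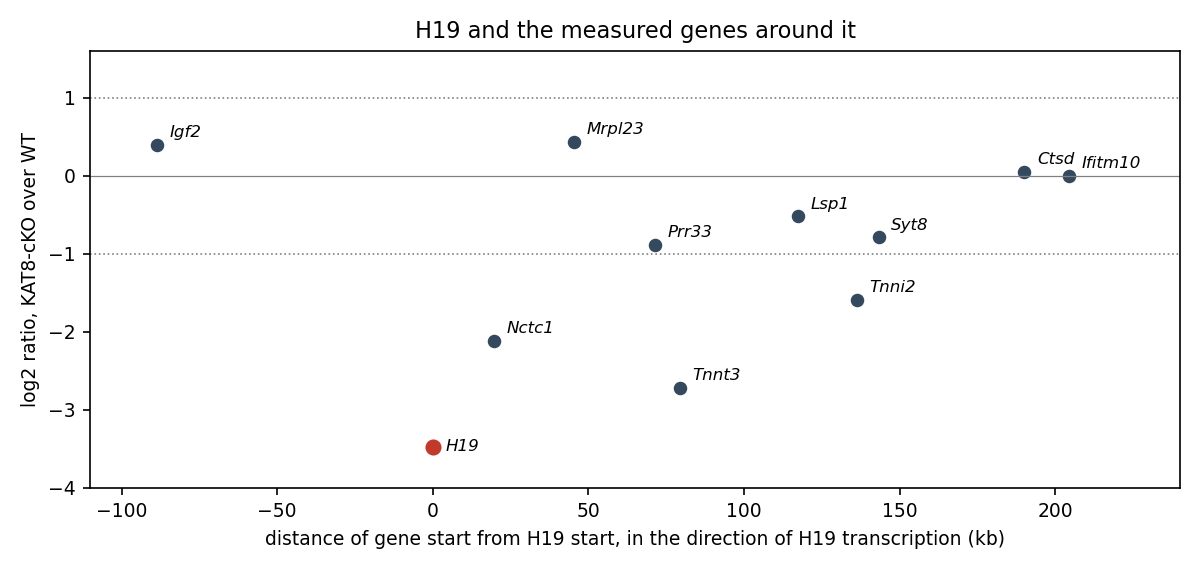
Log2 ratio (KAT8-cKO over WT) of H19 (red) and of the 10 measured genes around it (dark blue), by distance in kb from the start of H19 in its direction of transcription. Dotted lines mark a 2-fold difference. Nctc1, Tnnt3 and Tnni2 lie below the lower line beside H19, and Igf2 lies above 0.

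Skeletal muscle markers were lower in the same library as H19. Of 12 measured, 11 passed the rule as lower, against 8.63% of all genes measured. Their median log2 ratio was -1.93 and none was at 0 counts. Their summed level was 3168 CPM in the library labelled KAT8-cKO and 14813 CPM in the library labelled WT (4.68-fold lower). Myh4 and Actn3, genes of the fastest fibres, were 12.5-fold and 12.6-fold lower, close to H19, and Myh1, Myh2 and Mb were 2.81-fold, 2.48-fold and 1.23-fold lower. These genes were named after their values were seen. Relative to the muscle actin gene Acta1 within each library, H19 was 1.96-fold lower (interval 1.58 to 2.44) in the library labelled KAT8-cKO. Relative to Tnnt3 it was 1.92-fold lower (interval 1.55 to 2.39). These ratios depend on the muscle gene chosen. Acta1 and Tnnt3 were themselves 6.46-fold and 6.60-fold lower, less than H19, whereas Myh4 and Actn3 were lower by about as much as H19. The part of muscle or fat in the H19 difference was not tested. In such bulk samples, fewer cells of a type and less RNA per cell cannot be told apart.

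Markers of satellite cells and myoblasts were sparse, with 5 of 8 measured, 2 lower and none higher (8.63% and 4.56% of all genes measured). Cdh15 had 27 counts in the library labelled KAT8-cKO and 116 in the library labelled WT, and Myog, a factor of muscle differentiation, had 32 and 81. Megf10, a receptor of satellite cells, went the other way with 20 and 3 counts, a ratio of 5.29 (interval 1.57 to 27.8), and missed the rule at a log2 ratio of 0.92. Myod1 had 48 and 80 counts and Chrna1 186 and 162. The stem cell factors Pax7 (12 and 7 counts) and Myf5 (12 and 8) were below the filter, and Mymk had 0 and 5 counts. The summed level of the list was 23.2 CPM in the library labelled KAT8-cKO and 40.1 CPM in the library labelled WT.

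Dlk1 (ENSMUSG00000040856, chromosome 12 from 109452823 to 109463336, plus strand) was the member called higher. It had 145 counts in the library labelled KAT8-cKO and 20 in the library labelled WT, or 9.99 and 1.74 CPM, a ratio of 5.76 (interval 3.59 to 9.70), and the counting intervals did not overlap. Among genes measured, 117 had a higher ratio. The level in the library labelled WT was the lowest of the 10 members per kilobase of exon (0.307 CPM), and in the library labelled KAT8-cKO it ranked 8 (1.77 CPM).

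Meg3, the maternally expressed RNA downstream of Dlk1 (chromosome 12 from 109541001 to 109571726, plus strand), did not move with it. It had 301 counts in the library labelled KAT8-cKO and 253 in the library labelled WT, or 20.7 and 21.96 CPM, a ratio of 0.944 (interval 0.796 to 1.12). Relative to Meg3 within each library, Dlk1 was 6.09-fold higher with the knockout label (exact conditional interval 3.67 to 10.6). Of Meg3's exon length, 6.79% overlaps Gm26906 on the opposite strand, which had 0 counts in both libraries.

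The RefSeq sequences around the starts of these 2 neighbours are shown because the genes differed in ratio while lying in 1 domain. They run from 250 bases before to 50 after a start, GRCm38.p6, plus strand, at chr12:109452573-109452872 for Dlk1 and chr12:109540746-109541045 for the first Meg3 start. Capitals mark letters found on either strand for the GC box, written GGGCGG, the TATA box, written TATAAA, the CCAAT box, and the cAMP response element, written TGACGTCA.
Dlk1: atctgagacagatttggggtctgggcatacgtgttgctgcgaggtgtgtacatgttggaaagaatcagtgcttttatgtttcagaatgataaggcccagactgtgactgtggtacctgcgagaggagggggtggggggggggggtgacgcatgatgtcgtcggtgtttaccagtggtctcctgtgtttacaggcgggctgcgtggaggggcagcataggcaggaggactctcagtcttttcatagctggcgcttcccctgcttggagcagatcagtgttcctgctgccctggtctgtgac
Meg3: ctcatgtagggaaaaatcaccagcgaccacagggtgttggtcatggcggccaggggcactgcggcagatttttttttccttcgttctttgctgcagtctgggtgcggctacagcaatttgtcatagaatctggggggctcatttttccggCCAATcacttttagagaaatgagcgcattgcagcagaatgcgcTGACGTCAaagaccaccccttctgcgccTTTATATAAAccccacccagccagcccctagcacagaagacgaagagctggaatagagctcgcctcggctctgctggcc
None of the 4 motifs was found in the Dlk1 window. The first Meg3 window held 1 CCAAT box match, 1 cAMP response element match and 2 overlapping TATA box matches on opposite strands. A second Meg3 window, at chr12:109545148-109545447 and not shown, held none of the 4 motifs and 1 CpG. Of all 32851 promoter windows of this length, 35.7% held the GC box letters, 13.6% those of the TATA box, 37.4% those of the CCAAT box and 1.79% those of the cAMP response element. The windows shown held 9 CpG for Dlk1 and 13 for Meg3, against a median of 7 over all windows. A match is a description of letters and says nothing of binding. A window was found for 8 of the 10 members.

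The rest of the Dlk1 and Meg3 domain was read from the imprinted genes listed there. Begain, a gene upstream of Dlk1 listed as paternally expressed, had 101 counts in the library labelled KAT8-cKO and 21 in the library labelled WT, 3.82-fold higher (interval 2.37 to 6.43). Dio3, the paternally expressed deiodinase gene at the far end, was below the filter with 12 and 1 counts, a ratio of 9.53 (interval 1.41 to 407). Rtl1, also paternally expressed, had 3 and 0 counts, at the floor of 3 counts. On the maternal side, the non-coding RNA Rian had 187 and 197 counts, a ratio of 0.754 (interval 0.614 to 0.925), and Mirg had 13 and 11. Of the 4 measured genes of this domain, the 2 paternally expressed ones were called higher and the 2 maternally expressed ones were within 2-fold. Over all genes measured, 4.56% were called higher. The domain was singled out after its values were seen, and 3 of its 7 genes were not measured.

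**Figure D3:**
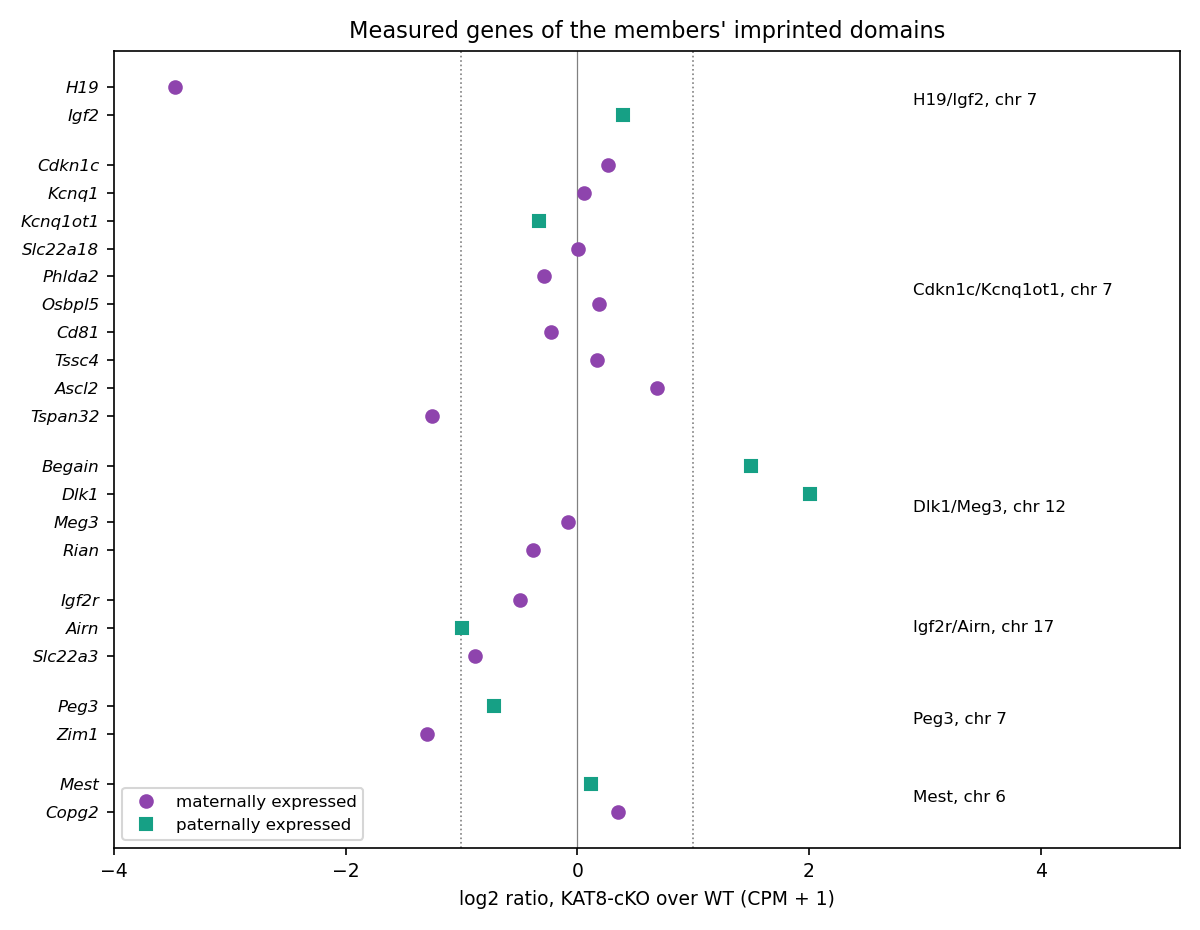
Log2 ratio (KAT8-cKO over WT) of the measured genes in the imprinted domains that hold a member and at least 1 other listed gene, maternally expressed genes as circles and paternally expressed ones as squares. Dotted lines mark a 2-fold difference. Begain and Dlk1 lie right of the upper line while Meg3 and Rian lie near 0, and H19 lies farthest left.

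Dlk1 is a marker of preadipocytes and is also made in cartilage and other mesenchymal progenitors, so the lists of those tissues stand beside it. Over all genes measured, 4.56% were called higher and 8.63% lower. Of 10 adipocyte genes, 7 were lower and none higher in the library labelled KAT8-cKO, with a summed level of 362 CPM there and 2966 CPM in the library labelled WT. Of 8 measured cartilage genes, 5 were higher and none lower, with sums of 242 and 132 CPM. Sox9 and Cnmd were 4.46-fold and 3.90-fold higher, and Matn1 had 1 count in each library. Acan, the cartilage gene with the most CPM, had a ratio of 1.38. Comp went the other way with 121 and 148 counts, 1.54-fold lower. Of 13 fibroblast genes 2 were higher and 3 lower, with sums of 5426 and 4034 CPM. The fibroblast genes were not of 1 direction. Postn and Col1a1, matrix genes, had ratios of 3.54 and 2.21, and Pdgfra, a receptor of fibroblasts and preadipocytes, had a ratio of 1.62. Pi16 and Dpp4, markers of fibroblast progenitors, were 2.14-fold and 2.02-fold lower, the second just short of the rule, and Dpt and Mfap5 were 2.91-fold and 3.07-fold lower. The part of these cell types in the Dlk1 difference was not tested.

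The remaining maternally expressed members differed less. Cdkn1c (chromosome 7 from 143458339 to 143461050, minus strand) had 350 counts in the library labelled KAT8-cKO and 230 in the library labelled WT, or 24.1 and 20.0 CPM, a ratio of 1.21 (interval 1.02 to 1.43). Per kilobase of exon it ranked 1 in the library labelled KAT8-cKO (11.8 CPM) and 3 in the library labelled WT (9.79 CPM). Igf2r (chromosome 17 from 12682406 to 12769664, minus strand) had 946 and 1066 counts, or 65.2 and 92.5 CPM, 1.42-fold lower (interval 1.3 to 1.55). Set against its ligand within each library, Igf2r was 1.89-fold lower relative to Igf2 with the knockout label (exact conditional interval 1.55 to 2.31).

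Among the paternally expressed members, Peg3 was lower and Mest and Plagl1 lay near equality. Peg3 (chromosome 7 from 6703892 to 6730431, minus strand) had 635 counts in the library labelled KAT8-cKO and 839 in the library labelled WT, or 43.8 and 72.8 CPM, 1.66-fold lower (interval 1.5 to 1.85). Mest (chromosome 6 from 30723547 to 30748465, plus strand) had 164 and 119 counts, or 11.3 and 10.3 CPM, a ratio of 1.09 (interval 0.859 to 1.40). Of its exon length, 23.1% overlaps Copg2 on the opposite strand, which had 1091 and 675 counts, so the value of Mest is uncertain if strand was not used in counting. Plagl1 (chromosome 10 from 13060504 to 13131694, plus strand) had 179 and 153 counts, or 12.3 and 13.3 CPM, a ratio of 0.929 (interval 0.744 to 1.16). For Mest, Plagl1 and Meg3 the interval held a ratio of 1. Grb10 (chromosome 11 from 11930508 to 12038683, minus strand), outside both classes, had 446 and 520 counts, or 30.7 and 45.1 CPM, 1.47-fold lower (interval 1.29 to 1.67).

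The parental classes did not separate. Maternally expressed members had log2 ratios from -3.48 (H19) to 0.26 (Cdkn1c), with a median of -0.29. Paternally expressed members ran from -0.72 (Peg3) to 2.01 (Dlk1), with a median of 0.12, so the ranges overlapped. The medians were -0.08 without H19 for the maternal class and 0.01 without Dlk1 for the paternal class. With the 3 members that share exons with other genes (Meg3, Igf2 and Mest) left out, the maternal median was -0.50 and the paternal median -0.10. With Grb10 counted as maternally expressed the maternal median was also -0.50. H19, Cdkn1c, Dlk1 and Peg3, which set the ends of the ranges, stayed in under both settings, so the ranges overlapped there too.

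The balance between the classes was also read within each library, where no scaling enters. Paternally expressed members took 46.3% (interval 44.6 to 48.1) of the counts on the 9 members of both classes in the library labelled KAT8-cKO, and 34.6% (33.1 to 36.1) in the library labelled WT. Without H19 the shares were 47.8% and 46.3%, with overlapping intervals (46.0 to 49.6 and 44.4 to 48.1). H19 alone held 5.73% of the counts on maternally expressed members in the library labelled KAT8-cKO and 38.6% in the library labelled WT. Dlk1 held 9.91% and 1.499% of those on paternally expressed members.

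**Figure D4:**
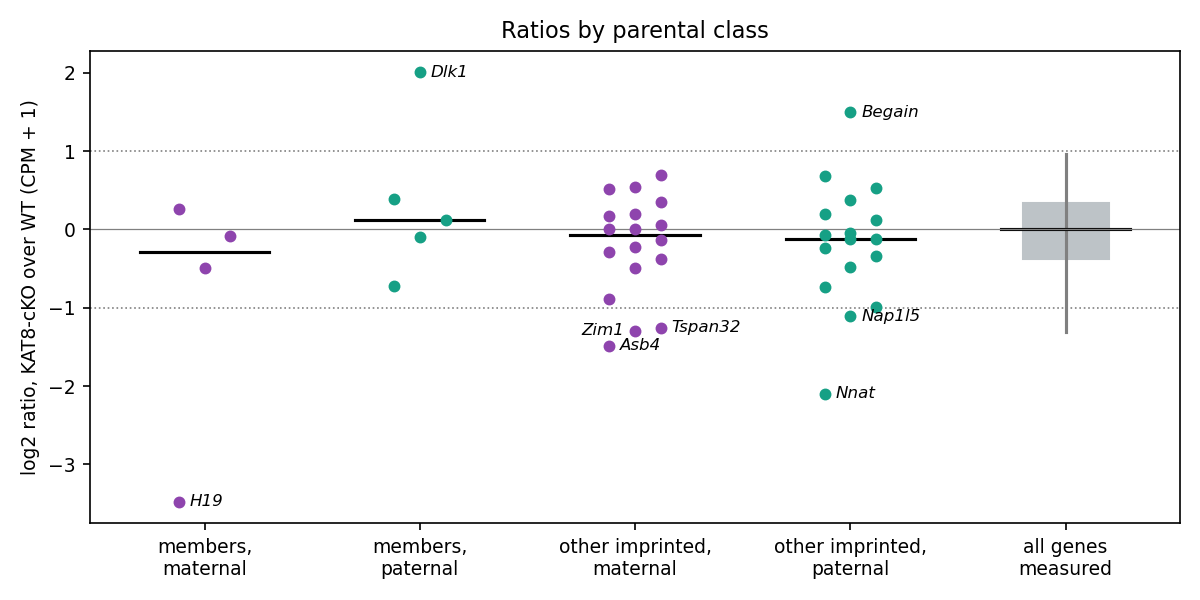
Log2 ratio (KAT8-cKO over WT, with 1 CPM added) by parental class, for the members and for the other listed imprinted genes, each point a gene and each black bar a median. The last column gives all 15240 measured genes, box from the 25th to the 75th percentile and line from the 5th to the 95th. The classes overlap around 0, with H19 lowest and Dlk1 highest.

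Other imprinted genes, listed with earlier results of these data known, numbered 47, of which 35 were measured. Many of them are imprinted in placenta or brain only, so class here is a label of the gene and not a measurement in skin. Of the 18 measured maternally expressed ones, 3 were lower and none higher (median -0.07), and of the 17 paternally expressed ones, 2 were lower and 1 higher (median -0.12). In all 6 of 35 passed the rule, which adds 1 CPM, 17.1% against the 13.2% of genes at large. Nnat, which encodes a small membrane protein of adipose, brain and endocrine tissue, had 23 counts in the library labelled KAT8-cKO and 116 in the library labelled WT, 6.35-fold lower (interval 4.04 to 10.4). Zim1, next to Peg3, had 33 and 81 counts and was 3.09-fold lower (interval 2.04 to 4.79). Tspan32, a tetraspanin gene of blood cells, had 27 and 67 and was 3.13-fold lower. Asb4 had 1 and 23 counts, 29.0-fold lower (interval 4.70 to 1194), and Nap1l5 had 1 and 15, 18.9-fold lower (interval 2.91 to 795).

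Taken across the domains, neighbours of the members showed no common direction. In the Cdkn1c domain, 1 of 10 listed genes passed the rule (Tspan32), against 13.2% of all genes measured. Ratios on the log2 scale ran from -1.25 to 0.69. There the growth restrainer Phlda2 had 105 counts in the library labelled KAT8-cKO and 104 in the library labelled WT, a ratio of 0.801 (interval 0.605 to 1.06), and the antisense RNA Kcnq1ot1 had 99 and 102. In the Igf2r domain, the antisense RNA Airn, named after its value was seen, had 25 and 51 counts and lay just short of the threshold at a log2 ratio of -0.995. In the Mest domain, Copg2 had a ratio of 1.28.

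Genes of the IGF axis differed in both directions, with 1 higher and 3 lower of 18 measured (22.2% called, against 13.2% of all genes measured). Their median log2 ratio was -0.12. Of the ligands, Igf1 had 24.5 CPM in the library labelled KAT8-cKO and 55.6 CPM in the library labelled WT, 2.27-fold lower (interval 1.99 to 2.59). Relative to Igf1 within each library, Igf2 was 3.02-fold higher (exact conditional interval 2.41 to 3.77) in the library labelled KAT8-cKO, so the balance of the 2 ligands differed. Of the receptors, Igf1r had 31.8 and 60.2 CPM, 1.89-fold lower, and Insr had 52.8 and 57.2 CPM. Both were named after their values were seen.

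Among IGF binding proteins, Igfbp2 had 113 CPM in the library labelled KAT8-cKO and 36.8 CPM in the library labelled WT, 3.06-fold higher (interval 2.75 to 3.42). Igfals, which encodes the acid-labile subunit that stabilises circulating IGF complexes, had 29 and 59 counts and was 2.56-fold lower. The abundant Igfbp3, Igfbp5 and Igfbp7 had ratios of 0.782, 1.21 and 0.918. Igfbp4, also abundant, had 132 CPM in the library labelled KAT8-cKO and 235 CPM in the library labelled WT. It was 1.78-fold lower (interval 1.68 to 1.89), and Igfbp6 was 1.59-fold lower. These 5 were named after their values were seen. Igf2bp1, an RNA-binding protein that binds Igf2 and H19 transcripts, had 8 and 32 counts and was 5.04-fold lower (interval 2.27 to 12.7).

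Of 13 genes known to be highest in fetal or neonatal tissue, 7 were measured and 42.9% of those called, against 13.2% of all genes measured. Of the 7, 3 were lower and none higher in the library labelled KAT8-cKO. Hmga2, a chromatin protein gene, had 71 counts in that library and 319 in the library labelled WT, 5.66-fold lower (interval 4.36 to 7.43). Lin28a, which blocks let-7 microRNA maturation, had 18 and 88 counts and was 6.16-fold lower (interval 3.68 to 10.9). Igf2bp1 was the other one. Hmga2, Lin28a and Igf2bp1 are known let-7 targets. Mature let-7 was not measured here, and its part was not tested. Exons of these 3 genes overlap those of other genes. Their relatives in the list, named after their values were seen, differed in direction. Hmga1 had a ratio of 1.22. Below the filter, Igf2bp3 had 7 counts in the library labelled KAT8-cKO and 0 in the library labelled WT, and Lin28b had 0 and 3. The embryonic myosin gene Myh3 went the other way, with 677 and 371 counts and a ratio of 1.45, and the neonatal myosin gene Myh8 had 38 and 60 counts.

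Cell type marker lists set the members' ratios in context, beside 4.56% of all genes measured called higher and 8.63% lower. Outside muscle, fat, cartilage and fibroblasts, sebaceous gland genes were higher in 7 of 9 cases and Schwann cell genes in 4 of 8, with medians of 2.70 and 1.17. Basal keratinocyte and dermal papilla genes were higher in 2 of 7 each (medians 0.55 and 0.64). Neutrophil genes were lower in 8 of 10 cases, macrophage genes in 4 of 9 and smooth muscle and pericyte genes in 3 of 7 (medians -1.88, -0.87 and -0.87). None of 8 endothelial genes passed 2-fold (median -0.49). Their part in the members' ratios was not tested.

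**Figure D5:**
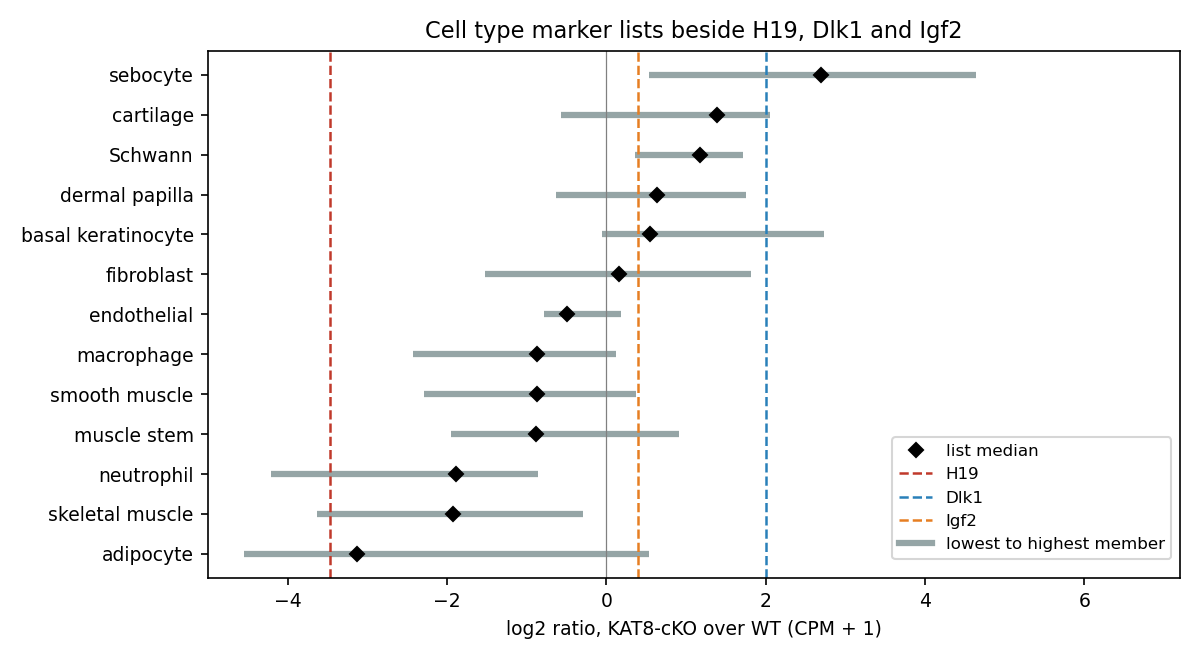
Median (diamond) and range from lowest to highest member (grey bar) of the log2 ratio (KAT8-cKO over WT) of each cell type marker list, with dashed lines at H19, Dlk1 and Igf2. H19 at -3.48 lies within the ranges of the skeletal muscle, adipocyte and neutrophil lists. Dlk1 at 2.01 lies within those of the cartilage, sebaceous and basal keratinocyte lists.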

How the data were processed

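The authors deposited raw counts per Ensembl gene for 2 libraries, whole numbers with no normalization. Per the submitters' processing notes, HISAT2, StringTie 1.3.0, edgeR and the build mm10 were used, without a role for each. The counting tool, annotation release and use of strand are not stated in the sources used here. Messenger RNA was isolated and fragmented, per the labels' protocols.

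Symbols, coordinates and exon lengths are from GENCODE mouse release M21 (GRCm38, the assembly of mm10). A symbol was found for 34344 of 34745 genes. Counts were divided by library total times a TMM factor (edgeR 4.0.16, R 4.3.3), 1.06 for KAT8-cKO and 0.946 for WT, giving CPM. Thus 1 count equals 0.0689 CPM in the library labelled KAT8-cKO and 0.0868 CPM in the library labelled WT. Log2 ratios use a pseudocount of 1 CPM. Folds divide CPM by CPM, and their 95% intervals are exact (Clopper-Pearson). The ratios of 2 genes have exact conditional intervals. Without molecular identifiers, reads may be copies of 1 molecule. Levels between genes are per kilobase of all exons of a gene, so an unused long isoform lowers them. Of measured genes, 31.0% share exons with another gene of the count table, the only genes checked for overlap.

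No test was possible with 1 library per genotype, so a 2-fold rule stood in. The members and all lists were chosen with earlier results of these data known. Genes named were the members and, from each list on imprinted genes, IGF, imprint factors, relatives and fetal genes, up to 6 past the rule. Where fewer than 2 passed it, the 2 most abundant were also named. Marker genes, neighbours, genes of the domains, gene pairs, Myh3, Myh8 and others said so were chosen after their values were seen. Likeness of pattern to H19 needs more than 2 libraries and is not given. The calculations were tested on simulated data. Scaling, pseudocount, filter, shared exons and class membership were varied.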

Additional observations from a re-analysis of the deposited data

How the results depend on the processing

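Over 77 values of single members under other settings, 73 shifted by less than the mean arm of the member's counting interval (log2) and 4 by more, and no called member changed sign. The 4 were Igf2r and Peg3 with plain CPM (-0.34 and -0.56) and H19 and Dlk1 with a pseudocount of 5 CPM (-2.94 and 1.15). H19 with plain CPM shifted by less than that arm but, at -3.33, also lay outside the interval itself, which is computed without a pseudocount. H19 kept a log2 ratio of at most -1 in 8 of 8 settings (from -3.64 to -2.94) and Dlk1 of at least 1 in 8 of 8 (from 1.15 to 2.46), and no other member passed 1. With plain CPM the median of all genes was 0.16, against 0.01 in the reported scaling, with 964 genes higher and 1056 lower, against 695 and 1315. Under it the log2 ratios of Meg3 and Plagl1 were 0.07 and 0.05, above 0. Without H19, 0 of 9 members were lower and 1 of 9 passed 2-fold, by construction. The medians of both classes kept their sign under the other settings, apart from the paternal one without genes that share exons. The medians of the other imprinted genes turned positive with plain CPM, at 0.08 (maternal) and 0.04 (paternal), and the maternal one also at 0.01 with totals that leave out mitochondrial and the 50 most abundant genes. A pseudocount of 0.1 CPM called 17.9% of all genes and one of 5 CPM 7.38%, against 13.2%. No paired analysis was possible because each genotype has 1 library. Depth limits Dlk1 most, with 20 counts in the library labelled WT.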

Other observations

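Factors that set, keep or remove the methylation at imprinted loci, or insulate them, were listed as well, and 14 of 16 were measured. Of these, 1 was called lower in the library labelled KAT8-cKO and none higher, 7.14% against 13.2% of all genes measured, and the median log2 ratio was 0.35. Tet2, which encodes an enzyme that oxidises methylated cytosine, had 526 counts in the library labelled KAT8-cKO and 871 in the library labelled WT, 2.09-fold lower (interval 1.87 to 2.33). Trim28, the corepressor that keeps imprints with ZFP57, had 2914 and 1576 counts, a ratio of 1.47, and the maintenance methyltransferase gene Dnmt1 had 2750 and 1163, a ratio of 1.88. The insulator gene Ctcf, named after its value was seen, had a ratio of 1.18. The germ line genes Dppa3 and Ctcfl were not measured.

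Relatives of the members that are not imprinted stayed within 2-fold in all 10 measured cases of 11, where 13.2% of all genes measured were called. The Cdkn1c relatives Cdkn1a (p21) and Cdkn1b (p27), also cyclin-dependent kinase inhibitors, had 3004 and 837 counts in the library labelled KAT8-cKO and 3987 and 921 in the library labelled WT, 1.67-fold and 1.39-fold lower. Dlk2, the relative of Dlk1, named after its value was seen, had 646 and 266 counts and a ratio of 1.93 (interval 1.67 to 2.23).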
